A study of Homo sapiens with 4 samples.

Results

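Ribosome-protected fragments on histone mRNAs were examined in HEK293T cells, which derive from human embryonic kidney and carry the SV40 large T antigen. There were 34 histone genes in the count tables of all 4 libraries, out of 8568 transcripts (1 per gene) that all 4 tables list. They were taken by gene symbol: 26 with a HIST prefix, here called replication-dependent (RD), and 8 others (H1FX, H2AFV, H2AFX, H2AFY2, H2AFZ, H3F3A, H3F3B and H3F3C), here called variant. The RD genes comprised 2 for the linker histone H1, 5 for H2A, 8 for H2B, 5 for H3 and 6 for H4. Of the 4 ribosome profiling libraries, 2 came from untreated cells (replicates A and B, below untreated A and untreated B) and 2 from cells given 500 µg/mL G418, an aminoglycoside that binds the ribosomal decoding center, for 24 hr (G418 A and G418 B). Coding sequences (CDSs) held 5775720 and 2302184 reads in untreated A and B, and 5312495 and 4455448 in G418 A and B, so untreated replicate B was the shallowest. With 2 libraries per condition, p-values measure only the spread between these libraries, and RNA levels were not analysed here, so fewer mRNAs and fewer ribosomes per mRNA cannot be told apart.

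The core histones H2A, H2B, H3 and H4 form the octamer around which DNA is wrapped, and H1 binds the linker DNA between octamers. RD histone mRNAs are made mainly in S phase, lack introns and a poly(A) tail, and end shortly after a conserved stem-loop that is bound by the stem-loop binding protein SLBP, which acts in their processing, translation and decay. Variant histones such as H2A.Z and H3.3 are made throughout the cell cycle, mostly from spliced, polyadenylated mRNAs. G418 promotes miscoding and stop codon readthrough, in which a ribosome decodes the normal termination codon (NTC) and elongates into the 3′UTR until an in-frame 3′UTR termination codon (3′TC).

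The stem-loop motif, read as GGC, any base, CTTTT, any base, AG, any base and GCC, was searched on the sense strand of the 3′UTRs of the listed transcripts, as GENCODE release 44 (hg38) annotates them. It was present in 22 of the 26 RD members, in 1 of the 8 variant members (H2AFX, which encodes H2A.X), and in 1 of 8239 other transcripts (0.0121%), a readthrough locus in the chromosome 6 histone cluster. Of all 8273 transcripts matched to that release, 0.290% held it. The following sites show the forms the results turn on, 5′ to 3′ with 5 flanking bases on each side and the 16 nt motif in capitals.
HIST1H4J (H4, chr6:27824459-27824474, plus strand): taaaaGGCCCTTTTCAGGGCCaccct
HIST2H4A (H4, chr1:149833032-149833047, plus strand): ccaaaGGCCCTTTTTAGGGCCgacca
HIST1H1E (H1, chr6:26157095-26157110, plus strand): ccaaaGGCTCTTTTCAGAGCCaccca
HIST1H2BD (H2B, chr6:26158587-26158602, plus strand): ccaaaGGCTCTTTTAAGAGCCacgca
HIST1H2AG (H2A, chr6:27133515-27133530, plus strand): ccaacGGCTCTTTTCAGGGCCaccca
H2AFX (variant, chr11:119094898-119094913, minus strand): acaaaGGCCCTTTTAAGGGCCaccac
All 6 RD H4 genes had a stem that opens with GGCC, whereas all 16 motif-bearing RD genes for H1, H2A, H2B and H3 had one that opens with GGCT. H2AFX had the GGCC form. The 4 RD members without the motif were HIST1H2AC, HIST1H2BN, HIST1H3E and HIST2H2BF, for which the tables list spliced transcripts of 2 or 3 exons.

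In the 22 RD members with the motif, the stem-loop began between 23 and 57 nt after the NTC (median 37). A first in-frame 3′TC preceded it in 2 of them, HIST1H3H (a histone H3 gene) and HIST3H2A (H2A), with the 3′TC ending 18 and 30 nt after the NTC. In the other 20, a ribosome that continued in frame past the NTC would meet the stem-loop first. No in-frame 3′TC was present in the listed 3′UTR of 7 of the 26 RD members (26.9%), compared with 4.69% of all 8568 transcripts. RD members used UAA more often (11 of 26, 42.3%) than all transcripts did (27.7%) and UGA less often (9 of 26, 34.6%, against 50.3%), and these shares were not tested. Among the 8 variant genes, as their transcripts are listed, 4 ended in UAA, 2 in UAG and 2 in UGA. The sequences around the NTC of HIST1H4J, HIST2H2BE, HIST2H4A, HIST1H2AG, HIST1H2BD and H3F3B, on which the readthrough results turn, are given below in 30 nt, with the stop codon and the base after it (+4) in capitals.
HIST1H4J (chr6:27824434-27824436, plus strand): ggtttcggtggtTGAGcgtccctttctatc
HIST2H2BE (chr1:149886260-149886262, minus strand): accagctccaagTGAGtccctgccgggacc
HIST2H4A (chr1:149832994-149832996, plus strand): ggcttcggaggcTAGGccgccgctccagct
HIST1H2AG (chr6:27133462-27133464, plus strand): gcgaagggcaagTAACtatctgtactagtt
HIST1H2BD (chr6:26158548-26158550, plus strand): accagttccaagTAACtttgccaagtaagc
H3F3B (chr17:75778591-75778593, minus strand): agagagcttaagTGAAggcagtttttatgg
Coordinates are those of the stop codon in hg38.

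**Figure D1:**
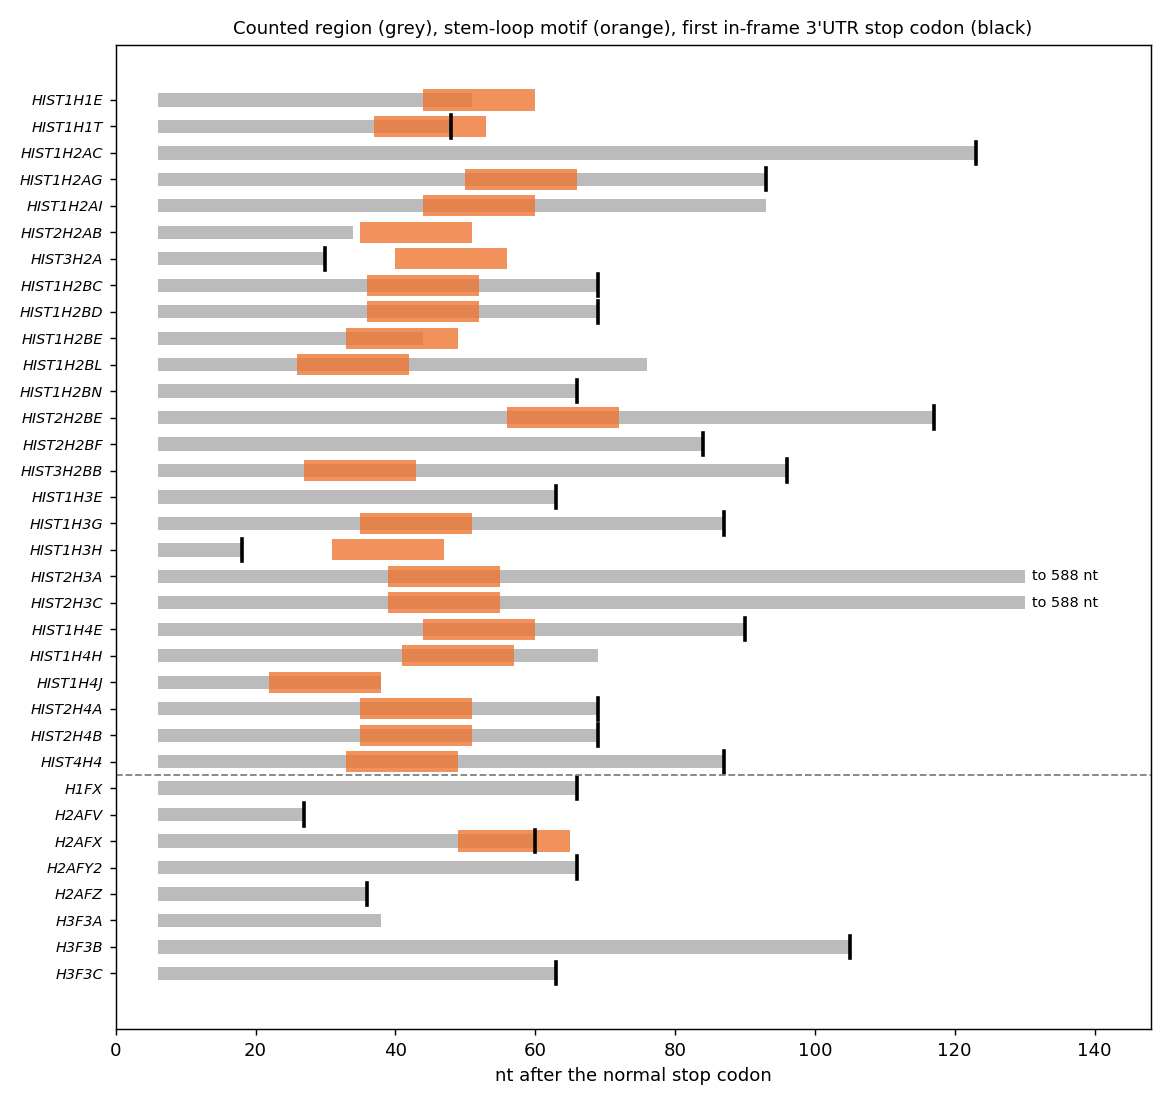
Map of the start of the 3′UTR in the 34 members, in nt after the NTC. Grey bars are the length over which readthrough was scored, from 6 nt after the NTC, orange boxes the stem-loop motif, and black ticks the end of the first in-frame 3′TC; the dashed line separates RD members (above) from variant members. In most RD members the grey bar runs through the stem-loop, and in HIST2H3A and HIST2H3C it runs to 588 nt.

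Histone genes resemble each other, and reads that map to several genes were assigned once, so a value for 1 gene can hold reads of its copies. Among RD members, a median of 36.6% of the 30 nt windows of a CDS also occurred in a transcript of another gene (range 0% to 100%). Among variant members the median was 43.1% (range 0% to 100%). H3F3A shared 100% of its CDS windows, H2AFZ 55.0% and H2AFV 49.1%, all with genes outside the list. HIST2H3A and HIST2H3C, which encode H3, shared 100% of CDS windows with each other, as did HIST2H4A and HIST2H4B, which encode H4. HIST1H4J shared 100% of its CDS windows with genes outside the list but 0% of its 3′UTR windows. The 3′UTR windows were less shared, with a median of 0% in both groups. Sums over a class do not depend on how reads were divided within that class, and they are therefore given beside the single genes.

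RD histone mRNAs carried a large share of all footprints. They took 3.52% and 4.03% of CDS reads in untreated A and B, and 3.19% and 3.26% in G418 A and B. Variant genes took 0.295% and 0.327% in untreated cells, against 0.306% and 0.305% with G418. Per length, the highest RD levels in untreated cells, on the deposited RPKM scale and as the mean of both libraries, were those of HIST2H4A (7326 RPKM), and the lowest that of HIST1H3G (3.14 RPKM), with a median of 2359 RPKM over the 26 genes. The 8 variant genes spanned 41.3 RPKM for H2AFY2, which encodes macroH2A2, to 2192 RPKM for H2AFZ, which encodes H2A.Z, with a median of 440 RPKM. The testis-specific linker histone gene HIST1H1T had only 28 and 12 CDS reads in untreated A and B, and HIST1H1E supplied nearly all H1 reads.

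**Figure D2:**
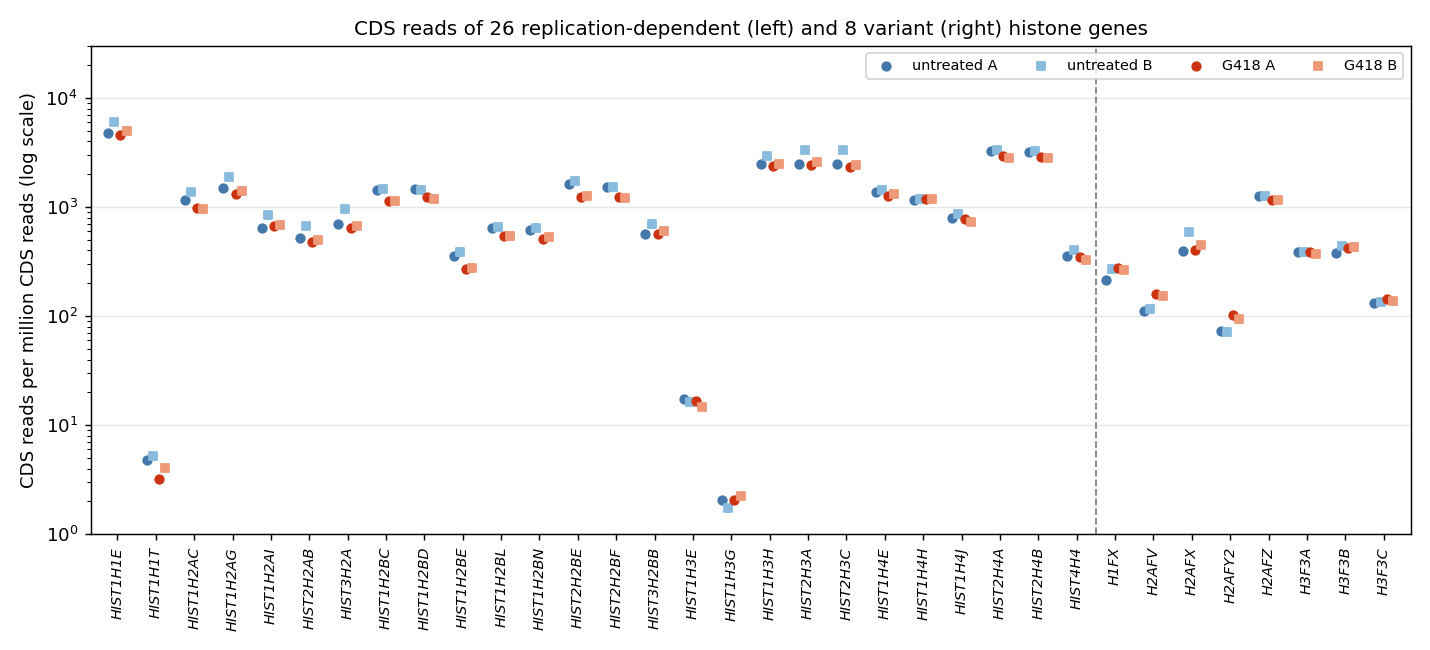
CDS RPM, reads scaled to the summed CDS reads of each library (log scale), for each member in untreated A and B (blue) and G418 replicates A and B (red). RD members are left of the dashed line and variant members right of it; HIST1H1E is the highest of the 34 genes by this measure, which is not scaled by length, and HIST1H1T, HIST1H3E and HIST1H3G lie far below the other RD members.

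CDS reads of RD histone genes fell with G418 in most genes, while 1 of the 8 variant genes was higher and 0 lower. In edgeR's quasi-likelihood test over 8494 transcripts, 17 of 25 tested RD members were lower (adjusted p below 0.05) and 0 higher, and all 25 had a log2 fold change below 0; 22 of the 25 were lower at an unadjusted p below 0.05, and 0 higher, against 10.1% and 12.7% of all transcripts, and DESeq2 called 13 lower and 0 higher, against 1.78% and 1.49% of all transcripts with a DESeq2 adjusted p. In comparison, 3.21% of all transcripts tested were lower and 5.31% were higher. The median log2 fold change was -0.36 over the 25 RD members and 0.00 over all transcripts tested. HIST1H3G, with 37 reads in all, did not pass the filter on low counts. Both G418 libraries lay below both untreated libraries for 19 of the 25 and above them for 0, compared with 12.8% and 40.6% of all transcripts tested. The number of RD members called fell to 0 without G418 replicate A and 1 without G418 replicate B, when 15 and 16 of all transcripts were lower, and was 22 and 18 without untreated replicates A and B. With library totals in place of TMM scaling, the median of all transcripts moved to 0.11, the median of RD members to -0.26, and 12 RD members were lower and 24 of 25 below 0.

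HIST1H2BE, an H2B gene, had the largest fall among RD members past the threshold. On the CDS RPM scale (reads scaled to the summed CDS reads of the library), it had 357 and 387 in untreated A and B, and 270 and 279 in G418 A and B. The 2 conditions did not overlap, and the log2 fold change was -0.54 ± 0.09 (SE, adjusted p = 0.000205). HIST2H2BE, the H2B gene with the most CDS reads, had 1625 and 1736 CDS RPM in untreated cells, against 1229 and 1260 with G418 (log2 fold change -0.53 ± 0.08, adjusted p = 4.13e-05). HIST2H2BF, another H2B gene, had 1528 and 1521 in untreated cells, against 1232 and 1219 with G418 (log2 fold change -0.42 ± 0.08, adjusted p = 0.00064). The G418 libraries were thus lower than the untreated libraries for each of these H2B genes, with little difference between replicates.

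HIST1H2AC and HIST1H2AG, which had the most CDS reads among H2A genes, also fell. HIST1H2AC had 1158 and 1386 CDS RPM in untreated A and B, and 984 and 963 in G418 A and B (log2 fold change -0.48 ± 0.09, adjusted p = 0.000319). HIST1H2AG had 1493 and 1882 in untreated cells, against 1306 and 1395 with G418 (log2 fold change -0.42 ± 0.09, adjusted p = 0.00226). For both, untreated replicate B was well above untreated replicate A, while the 2 G418 libraries were close together and below both. Without untreated replicate B the log2 fold change of HIST1H2AG was -0.25.

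For the H1 gene HIST1H1E and the H3 genes HIST2H3A and HIST2H3C, the untreated libraries differed from each other by more than the treatment moved them. HIST1H1E had 4787 and 5973 CDS RPM in untreated A and B, and 4536 and 4988 in G418 A and B. G418 replicate B thus lay above untreated replicate A, and the fitted log2 fold change was -0.28 ± 0.08 (adjusted p = 0.0333). HIST2H3A had 2464 and 3369 in untreated cells, against 2426 and 2565 with G418, which overlap (log2 fold change -0.32 ± 0.09, adjusted p = 0.0261). Its near-identical copy HIST2H3C had 2504 and 3309 in untreated cells, against 2348 and 2406 with G418 (log2 fold change -0.39 ± 0.09, adjusted p = 0.00498). HIST1H1E and HIST2H3A did not pass the threshold in DESeq2, with library totals alone or without untreated replicate B, where their log2 fold changes were -0.12 and -0.09. That of HIST2H3C without the same library was -0.18.

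The 6 H4 genes had log2 fold changes between -0.30 (HIST2H4A) and -0.10 (HIST1H4H). HIST2H4A had 3286 and 3316 CDS RPM in untreated cells, against 2925 and 2828 with G418 (log2 fold change -0.30 ± 0.07, adjusted p = 0.00851). HIST2H4B had 3205 and 3278 in untreated cells, against 2882 and 2796 with G418 (log2 fold change -0.29 ± 0.07, adjusted p = 0.0104). HIST1H4J had 801 and 859 in untreated cells, against 770 and 731 with G418, without overlap. Its log2 fold change of -0.24 ± 0.08 did not pass the threshold (adjusted p = 0.0599), but did with the replicate letter as a block. The log2 fold change was -0.29 without untreated replicate A and -0.20 without untreated replicate B. With library totals alone neither HIST2H4A nor HIST2H4B passed. In the edgeR test 2 of 6 H4 genes passed, compared with 7 of 8 H2B genes, 4 of 5 H2A genes, 3 of 4 tested H3 genes and 1 of 2 H1 genes.

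**Figure D3:**
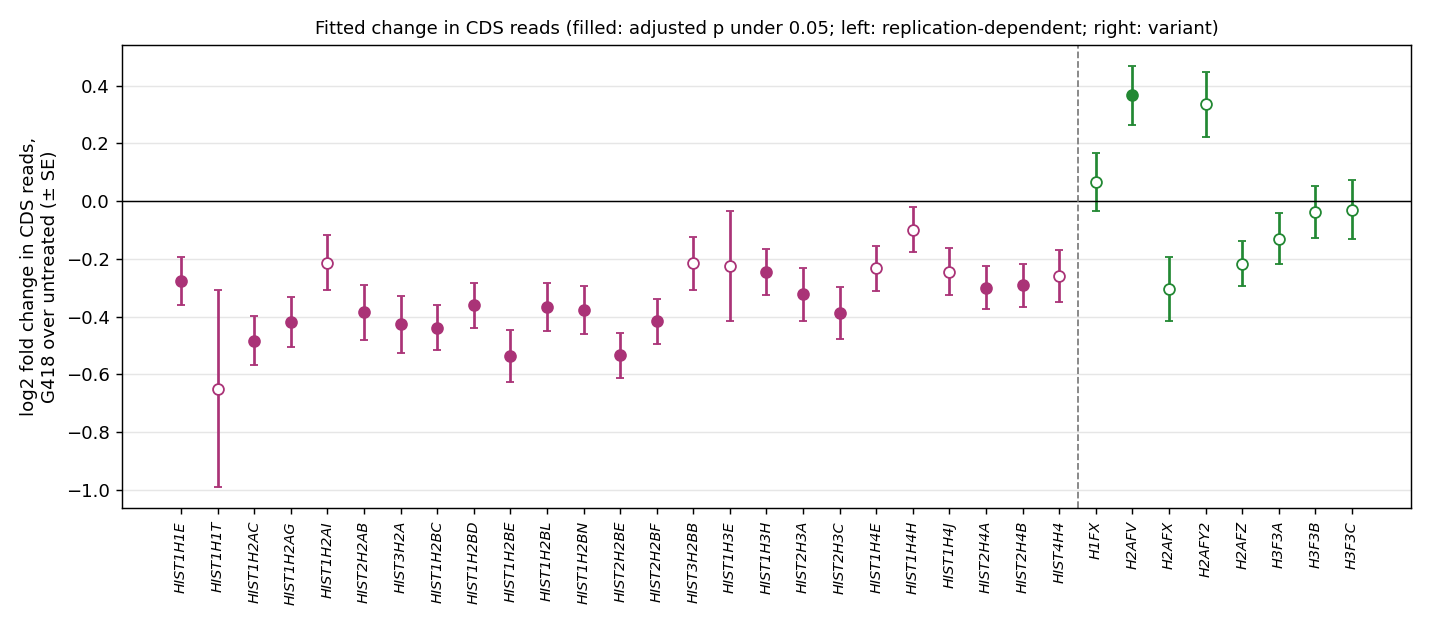
Fitted log2 fold change in CDS reads, G418 over untreated, for the 33 members tested by edgeR; bars are 1 SE, and filled circles have an adjusted p below 0.05. All 25 RD members (left of the dashed line) lie below 0, and variant members (right) lie on both sides, from -0.30 for H2AFX to 0.37 for H2AFV.

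When the RD genes were summed by class before the fit, all 5 classes fell. The log2 fold change was -0.42 ± 0.07 (SE) for H2B (adjusted p = 0.000201), -0.41 ± 0.08 for H2A (adjusted p = 0.0019), -0.32 ± 0.08 for H3 (adjusted p = 0.0117), -0.28 ± 0.08 for H1 (adjusted p = 0.032) and -0.26 ± 0.07 for H4 (adjusted p = 0.0164). Neighbouring classes in this order differed by less than their combined errors, and differences between classes were not tested. As plain shares, H2B took 0.821% and 0.852% of CDS reads in untreated cells, against 0.671% and 0.674% with G418. H4 took 1.02% and 1.05% in untreated cells, against 0.936% and 0.918% with G418. Both classes were separated between conditions by far more than their replicates differed, whereas H1 overlapped, with 0.479% and 0.598% in untreated cells, against 0.454% and 0.499% with G418.

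The summed RD share moved by -0.22 on the log2 scale, with a spread between replicates of 0.14, and the summed variant share moved by -0.02, with a spread of 0.10. There were 11.9 and 12.3 RD reads for each variant read in untreated A and B, and 10.4 and 10.7 in G418 A and B. This ratio was lower in both G418 libraries than in both untreated libraries, at 0.870 of its untreated value (two-sided exact permutation over libraries, p = 0.33, the smallest that 2 libraries against 2 allow). Since H2AFZ supplied 39.4% of variant CDS reads, the variant sum is weighted towards that gene.

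Variant genes had log2 fold changes on both sides of 0. H2AFV, which encodes the second H2A.Z protein, had 112 and 115 CDS RPM in untreated cells, against 160 and 154 with G418, and was the 1 variant member that passed the threshold (log2 fold change 0.37 ± 0.10, adjusted p = 0.0213). It did not pass in DESeq2, or without either of the G418 libraries. H2AFY2 had 73.2 and 71.7 in untreated cells, against 102 and 94.9 with G418 (log2 fold change 0.34 ± 0.11, adjusted p = 0.0591). It passed with library totals alone or with the replicate letter as a block. Its log2 fold change was 0.36 without untreated replicate A and 0.32 without untreated replicate B. No variant member was lower by edgeR or by DESeq2, but 2 had a log2 fold change below 0 with an unadjusted p below 0.05 in edgeR. H2AFX, the variant gene with a stem-loop, had 399 and 596 in untreated cells, against 408 and 446 with G418, a log2 fold change of -0.30 ± 0.11 that did not pass (adjusted p = 0.089). With the replicate letter as a block H2AFX passed (log2 fold change -0.29). Its value rested on the untreated libraries, at -0.01 without untreated replicate B and at -0.58 without untreated replicate A. H2AFZ had 1255 and 1251 in untreated cells, against 1159 and 1155 with G418 (log2 fold change -0.22 ± 0.08, adjusted p = 0.081), and passed without either untreated library.

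The other 4 variant genes differed little between conditions. H3F3A and H3F3B, which both encode H3.3, had log2 fold changes of -0.13 ± 0.09 (adjusted p = 0.397) and -0.04 ± 0.09 (adjusted p = 0.85). H3F3C, a retrogene copy that encodes H3.5, and H1FX, which encodes the linker histone H1X, had log2 fold changes of -0.03 ± 0.10 (adjusted p = 0.898) and 0.07 ± 0.10 (adjusted p = 0.755). These intervals do not exclude changes of the size seen in some RD members.

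The 5′UTRs of the 2 groups carried very different numbers of footprints. For each 1000 CDS reads, RD members together had 31.7 and 31.1 5′UTR reads in untreated A and B, whereas variant members had 156 and 169. RD 5′UTRs are short (median 36 nt, against 122 nt for variant genes and 146 nt for all transcripts), and per nucleotide the gap was small: 5′UTR density was 0.344 and 0.347 of CDS density for RD members, and 0.411 and 0.455 for variant members. All 8568 transcripts together had 48.4 and 55.7 5′UTR reads for each 1000 CDS reads in the same libraries. The densities per nucleotide rest on the deposited 5′UTR lengths. For several RD members these differ from GENCODE release 44, as for HIST1H1E (37 nt against 62 nt) and HIST1H4E (93 nt against 35 nt).

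After G418 both groups had fewer 5′UTR reads relative to their CDS. RD members dropped to 19.996 and 21.2 for each 1000 CDS reads in G418 A and B, or 0.656 of the untreated value. Variant members dropped to 121 and 124, or 0.757 of the untreated value. In all transcripts the G418 libraries had 47.1 and 48.4, which overlap with the untreated libraries. Per nucleotide they did not overlap: 5′UTR density over CDS density was 0.316 and 0.365 in untreated cells, against 0.298 and 0.309 with G418, or 0.893 of the untreated value. The same measure gave 0.655 for RD members and 0.745 for variant members. The log2 ratio was -0.61 with a spread between replicates of 0.06 for RD members, and -0.40 with a spread of 0.08 for variant members (two-sided exact permutation over libraries, p = 0.33 for each, the smallest that 2 against 2 allow). RD reads over variant reads, by this measure, were 0.203 and 0.184 in untreated cells, against 0.165 and 0.171 with G418. By RD class, the log2 ratio of 5′UTR reads for each 1000 CDS reads was -1.07 for H1 and -0.79 for H4. It was -0.68 for H2A, -0.46 for H3 and -0.31 for H2B, the last a smaller drop than that of variant members. Both G418 libraries lay below both untreated libraries in every class, and differences between classes were not tested. Since H2AFZ supplied 41.0% of variant 5′UTR reads and changed little, the variant log2 ratio without it was -0.60, at the level of the RD members.

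Each gene was then tested with its CDS reads as offset. Of 20 RD members with at least 20 5′UTR reads, 3 were lower and 0 higher by edgeR, and of 6 variant members 1 was lower and 0 higher, compared with 1.39% of 4254 transcripts lower and 0.0235% higher. At an unadjusted p below 0.05, 15 RD and 4 variant members were lower and 0 higher, against 11.1% and 2.09% of all transcripts, and DESeq2 called 2 and 1 lower and 0 higher, against 4.29% of transcripts with an adjusted p. The median log2 fold change was -0.75 for RD members, -0.51 for variant members and -0.17 for all transcripts tested. The G418 libraries lay below the untreated libraries for 15 of the 20 RD and all 6 variant members, compared with 31.8% of transcripts tested. With a minimum of 10 reads 5 RD members were lower, and the number ranged from 2 without G418 replicate A or B to 7 and 11 without untreated replicates A and B.

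HIST1H1E had the most precise change of the RD genes. It had 1183 and 602 5′UTR reads in untreated A and B, and 514 and 440 in G418 A and B, or 42.8 and 43.8 against 21.3 and 19.8 for each 1000 CDS reads. The log2 fold change was -1.07 ± 0.09 (SE, adjusted p = 6.47e-05), larger by far than the difference between replicates. HIST1H2AG had 23.0 and 20.3 in untreated cells, against 8.65 and 12.1 with G418 (log2 fold change -1.07 ± 0.23, adjusted p = 0.0399). HIST2H3A had 73.8 and 71.3 in untreated cells, against 51.1 and 45.8 with G418 (log2 fold change -0.58 ± 0.09, adjusted p = 0.00623). HIST2H3A was not called by DESeq2, nor HIST1H2AG without either G418 library or with a minimum of 40 reads.

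Other RD members had values in the same direction that did not pass the threshold. HIST1H2AC had 51.7 and 42.0 5′UTR reads for each 1000 CDS reads in untreated cells, against 27.4 and 28.4 with G418 (log2 fold change -0.76 ± 0.17, adjusted p = 0.0501). HIST1H4J had 27.7 and 33.4 in untreated cells, against 10.5 and 21.2 with G418 (log2 fold change -0.95 ± 0.31, adjusted p = 0.187). Leaving out 1 library at a time moved it between -1.52 and -0.51. Both HIST1H2AC and HIST1H4J passed with the replicate letter as a block. HIST1H2BD had 112 and 105 in untreated cells, against 80.02 and 98.1 with G418 (log2 fold change -0.29 ± 0.11, adjusted p = 0.269). Its log2 fold change lay between -0.44 and -0.15 when 1 library was left out. The single RD member with a log2 fold change above 0 was HIST1H3E, named after its values were seen, at 0.42 ± 0.32 (adjusted p = 0.629). The 6 RD members that were not tested had between 0 and 5 5′UTR reads in all.

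Among variant genes, H1FX was lower. It had 426 and 534 5′UTR reads for each 1000 CDS reads in untreated cells, against 229 and 320 with G418 (log2 fold change -0.80 ± 0.16, adjusted p = 0.03). Without G418 replicate A it did not pass, and leaving out 1 library at a time gave log2 fold changes from -1.06 to -0.58. H3F3B had 238 and 235 in untreated cells, against 177 and 160 with G418 (log2 fold change -0.49 ± 0.12, adjusted p = 0.0752). H2AFX had 152 and 133 in untreated cells, against 101 and 96.0 with G418 (log2 fold change -0.54 ± 0.15, adjusted p = 0.111). H2AFY2 had a log2 fold change of -0.67 ± 0.23 (adjusted p = 0.222), H3F3A of -0.47 ± 0.34 (adjusted p = 0.592) and H2AFZ of -0.10 ± 0.08 (adjusted p = 0.638). That of H3F3A lay between -0.79 and -0.22 when 1 library was left out. H2AFV and H3F3C had 16 and 7 5′UTR reads in all and were not tested.

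**Figure D4:**
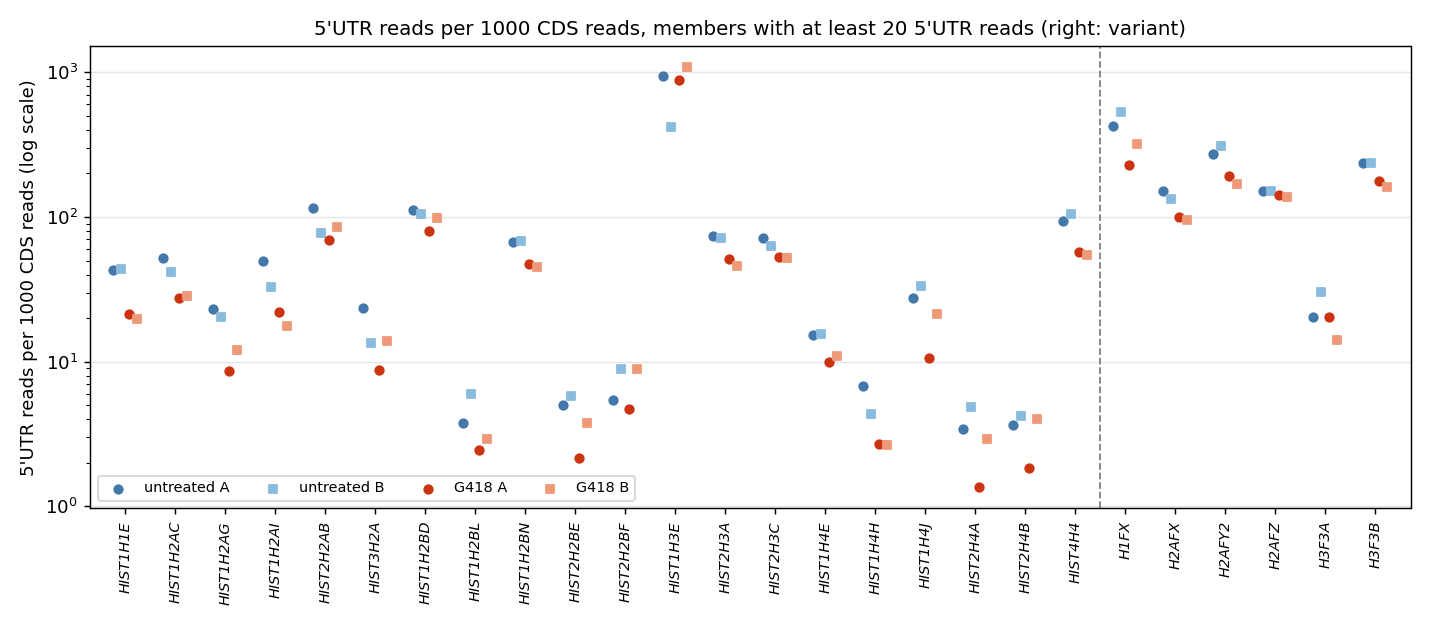
5′UTR reads for each 1000 CDS reads (log scale) in the 26 members with at least 20 5′UTR reads, by library; RD members are left of the dashed line and variant members right. G418 libraries (red) lie below untreated libraries (blue) for 15 of the 20 RD members and for all 6 variant members, and HIST1H2BE and the other untested members are not drawn.

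Readthrough was scored as the ribosome readthrough score (RRTS), the density of reads past the NTC, as far as the in-frame 3′TC met first, over the density in the CDS. Summed over the 24 RD members that passed the study's minimum on mRNA reads in each condition, there were 536 and 202 reads in this region in untreated A and B, and 3989 and 3142 in G418 A and B. The aggregate RRTS of RD members rose from 0.00706 and 0.00539 in untreated cells to 0.0615 and 0.0562 with G418, a 9.53-fold difference. That of the 8 variant members rose from 0.0151 and 0.0114 to 0.0979 and 0.0882, or 7.08-fold, from 32 and 11 reads to 201 and 153. Over all 6509 transcripts it rose from 0.0199 and 0.0181 to 0.158 and 0.151, or 8.13-fold. Both G418 libraries were above both untreated libraries in each of the 3 sets (two-sided exact permutation over libraries, p = 0.33 for each, the smallest that 2 against 2 allow). The RD value over the variant value was 0.468 and 0.473 in untreated cells, against 0.629 and 0.637 with G418 (p = 0.33 by the same exact test).

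The RD level depended on where the counted region ended. HIST2H3A and HIST2H3C were scored over 582 nt, far past the stem-loop at which RD mRNAs are known to end. When the region of each motif-bearing member was ended at the stem-loop, an alternative chosen after seeing the data, aggregate RRTS of RD members was 0.0193 and 0.0162 in untreated cells, against 0.175 and 0.162 with G418. This scaling keeps all reads, since reads past the stem-loop were not separated in the tables. The RD value was then 1.28 and 1.42 times the variant value in untreated cells, against 1.79 and 1.84 times with G418, so that the order of the groups turned. The fold difference between conditions was 9.52, which such a change of length alone can hardly move, since the same reads are divided by it in both conditions. Without HIST2H3A and HIST2H3C, also chosen after seeing the data, the RD mean was 0.0143 ± 0.00145 (SD, n = 2) in untreated cells, against 0.126 ± 0.00508 (SD, n = 2) with G418.

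By class, untreated levels were lowest for H4 and H3, but how far H3 lay below the others depended on where its regions ended. Aggregate RRTS in untreated A and B was 0.00377 and 0.00343 for H4 and 0.00123 and 0.000963 for H3, compared with 0.0214 and 0.0192 for H2B, 0.0266 and 0.0202 for H2A, and 0.0317 and 0.0223 for H1. In G418 replicates A and B it was 0.0837 and 0.0737 for H4, 0.0205 and 0.0188 for H3, 0.141 and 0.147 for H2B, 0.187 and 0.154 for H2A, and 0.166 and 0.152 for H1. The fold difference was 21.8 for H4 and 18.02 for H3, but 7.10 for H2B, 7.31 for H2A and 5.96 for H1. With regions ended at the stem-loop, untreated RRTS was 0.00527 and 0.0048 for H4 and 0.0131 and 0.0104 for H3, compared with 0.02998 and 0.0271 for H2B, 0.0322 and 0.0246 for H2A, and the same values as before for H1, where 1 gene entered. With G418 it was then 0.117 and 0.103 for H4, 0.218 and 0.200 for H3, 0.199 and 0.208 for H2B, and 0.228 and 0.189 for H2A. Members without the motif kept their whole regions in these sums. With G418, HIST1H2AC (H2A) had 21 reads where 3093 were expected at its CDS density, and HIST2H2BF (H2B) had 0 where 2510 were expected. The H2A and H2B values are therefore lowered, and their closeness to H3 is not read as a likeness. Single genes crossed the untreated order, since HIST2H2BE had an untreated mean of 0.0124 with the same ends, against 0.0138 for HIST2H3A and 0.0159 for HIST1H3H. The folds with these ends were 21.8 for H4 and 17.9 for H3, and 7.12, 7.38 and 5.96 for H2B, H2A and H1. Differences between classes were not tested.

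In the test of each gene, 20 RD members had at least 10 reads in the counted region, and all 20 were higher after G418, as were 5 of 6 variant members, compared with 82.6% of 2827 transcripts tested that were higher and 0.0707% that were lower. The minimum was applied to reads over all 4 libraries, most of which came from the G418 libraries, so members that passed it were already likely to be higher, and these counts are descriptions. For members with fewer than 10 such reads in the untreated libraries, which passed only through the G418 libraries, values are given without a p. DESeq2 also called 20 and 5, against 48.5% of transcripts. The G418 libraries lay above both untreated libraries for 20 of the 20 RD and 5 of the 6 variant members, against 93.7% of transcripts, and below them for 0, against 0.354%. The 6 RD members under the minimum had 0 to 5 reads each, and the 2 such variant members, H2AFV and H3F3C, had 3 and 8.

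The HIST1H4J mRNA, whose 3′UTR has no in-frame 3′TC and a stem-loop 23 nt after the NTC, had 5 and 2 reads past the NTC in untreated A and B, and 190 and 104 in G418 A and B. Its RRTS was 0.00942 and 0.00882 in untreated cells, against 0.405 and 0.279 with G418, far apart (log2 fold change 5.18 ± 0.32). All of its CDS windows but 0% of its 3′UTR windows occur in genes outside the list. CDS reads assigned to those copies would raise its RRTS, so its level is uncertain, and the share of reads this moves was not tested. HIST2H4A had 9 and 3 reads in untreated cells, against 219 and 167 with G418, with RRTS of 0.0021 and 0.00174 against 0.0624 and 0.0587 (log2 fold change 4.90 ± 0.27, adjusted p = 9.16e-72). HIST2H4B had nearly the same values, 0.00191 and 0.00176 against 0.0602 and 0.0558 (log2 fold change 4.93 ± 0.27, adjusted p = 2.69e-68). The 3′UTR windows of HIST2H4A and HIST2H4B were 100% shared, so these are not 2 independent measurements.

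The 3 RD members with the most reads in the counted region differed, as ratios, mainly in their untreated level. HIST1H2AG had 95 and 44 reads in untreated A and B, and 537 and 389 in G418 A and B. Its RRTS was 0.0456 and 0.042 in untreated cells, against 0.32 and 0.259 with G418 (log2 fold change 2.71 ± 0.14, adjusted p = 9.01e-84). HIST1H2BD had 142 and 65 reads in untreated cells, against 441 and 345 with G418, with RRTS of 0.0932 and 0.11 against 0.374 and 0.363. Its untreated RRTS was the highest of the 34 members, and its log2 fold change of 1.89 ± 0.13 was the smallest of the 20 RD members tested (adjusted p = 1.81e-46). HIST2H2BE had 23 and 9 reads in untreated cells, against 365 and 350 with G418, with RRTS of 0.00768 and 0.00706 against 0.175 and 0.195 (log2 fold change 4.62 ± 0.19, adjusted p = 4.9e-123). As a ratio, HIST1H2BD thus lay far above HIST2H2BE before treatment in both replicates, and much closer to it after treatment. The plain difference between their RRTS values was larger after treatment.

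Of the other named RD members, HIST1H1E had 63 and 22 reads in untreated cells, against 287 and 242 with G418, with RRTS of 0.0317 and 0.0223 against 0.166 and 0.152 (log2 fold change 2.49 ± 0.16, adjusted p = 5.61e-49). HIST2H3A had 27 and 13 reads against 348 and 252, with RRTS of 0.00123 and 0.00109 against 0.0175 and 0.0143 over 582 nt (log2 fold change 3.75 ± 0.19, adjusted p = 1.28e-83). Ended at the stem-loop, its mean RRTS was 0.0138 in untreated cells, against 0.189 with G418. HIST2H3C, whose 3′UTR windows were 100% shared with HIST2H3A, had 22 and 6 reads against 306 and 227. HIST1H3H, where the first 3′TC comes before the stem-loop and only 12 nt were scored, had the highest G418 mean of the RD members over the deposited regions (0.423) and was named for that after its values were seen. Ended at the stem-loop, HIST1H2BD was the highest, at 0.505.

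Several RD members with many CDS reads had few or no reads past the NTC. HIST1H2AC, listed as a spliced transcript without the stem-loop motif, had 0 reads in both untreated libraries and 14 and 7 in G418 A and B, at least 7.27-fold more than the 3 reads over both untreated libraries taken as the smallest detectable count, for RRTS of 0.00824 and 0.00502. HIST2H2BF had 0 3′UTR reads in all 4 libraries from 24302 CDS reads, but 100% of its 3′UTR windows also occur in a gene outside the list, to which such reads could have been assigned, so no limit on its RRTS is given. HIST1H2BN, named after its values were seen, had 0 3′UTR reads from 10090 CDS reads. Of 78 transcripts with at least as many CDS reads as HIST2H2BF, 2 had 0 3′UTR reads (2.56%), and of 306 with at least as many as HIST1H2BN, 11 (3.59%). HIST1H2BE, which has the motif and no in-frame 3′TC, had 1 and 0 reads in untreated cells, against 1 and 0 with G418, from 2064, 890, 1432 and 1244 CDS reads. HIST1H1T had 0 reads past the NTC in 3 libraries and 1 in G418 replicate B. The CDSs listed for HIST2H2BF and HIST1H2BN are 405 and 501 nt long, compared with 381 nt for the other 6 H2B genes, so their listed NTC is not that of the unspliced H2B reading frame. Part of the CDS reads of these genes are shared with other H2B genes: 91.0% of the CDS windows of HIST2H2BF, 45.6% of those of HIST1H2BN and 42.6% of those of HIST1H2BE also occur in other genes, and the share of reads this moves was not tested.

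Variant members had 397 reads in the counted region in all, so their values are less precise. H3F3B had 6 and 3 reads in untreated cells, against 71 and 55 with G418, with RRTS of 0.00855 and 0.00928 against 0.099 and 0.0899 (log2 fold change 3.40 ± 0.39). H2AFZ had 20 and 5 reads against 64 and 40, with RRTS of 0.0326 and 0.0205 against 0.123 and 0.0918 (log2 fold change 1.89 ± 0.32, adjusted p = 1.32e-08), and a log2 fold change of 1.26 over its whole 3′UTR. H2AFX had 1 read in each untreated library and 19 and 33 in the G418 libraries, with RRTS of 0.0032 and 0.00539 against 0.0648 and 0.123 (ratio of the summed values 23, 95% exact counting interval 6.06 to 195). This interval covers counting error only and is no test of a rise, since H2AFX passed the minimum only through its G418 reads. In all 3 the G418 libraries lay above the untreated libraries. For H3F3B and H2AFX the minimum made this likely in advance, so it is a description only.

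H1FX had 1 and 0 reads in untreated cells, against 23 and 15 with G418, with RRTS of 0.16 and 0.129 after treatment (ratio of the summed values 26.9, 95% exact counting interval 4.54 to 1089). It too passed the minimum only through its G418 reads, so the interval covers counting error only and is no test of a rise. H2AFY2 had 0 reads in untreated cells, against 13 and 5 with G418, at least 3.66-fold above 3 reads over both untreated libraries. H3F3A had 3 and 1 reads in untreated cells, against 6 and 1 with G418, over 32 nt, and the conditions overlapped. It had 11 reads in all.

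**Figure D5:**
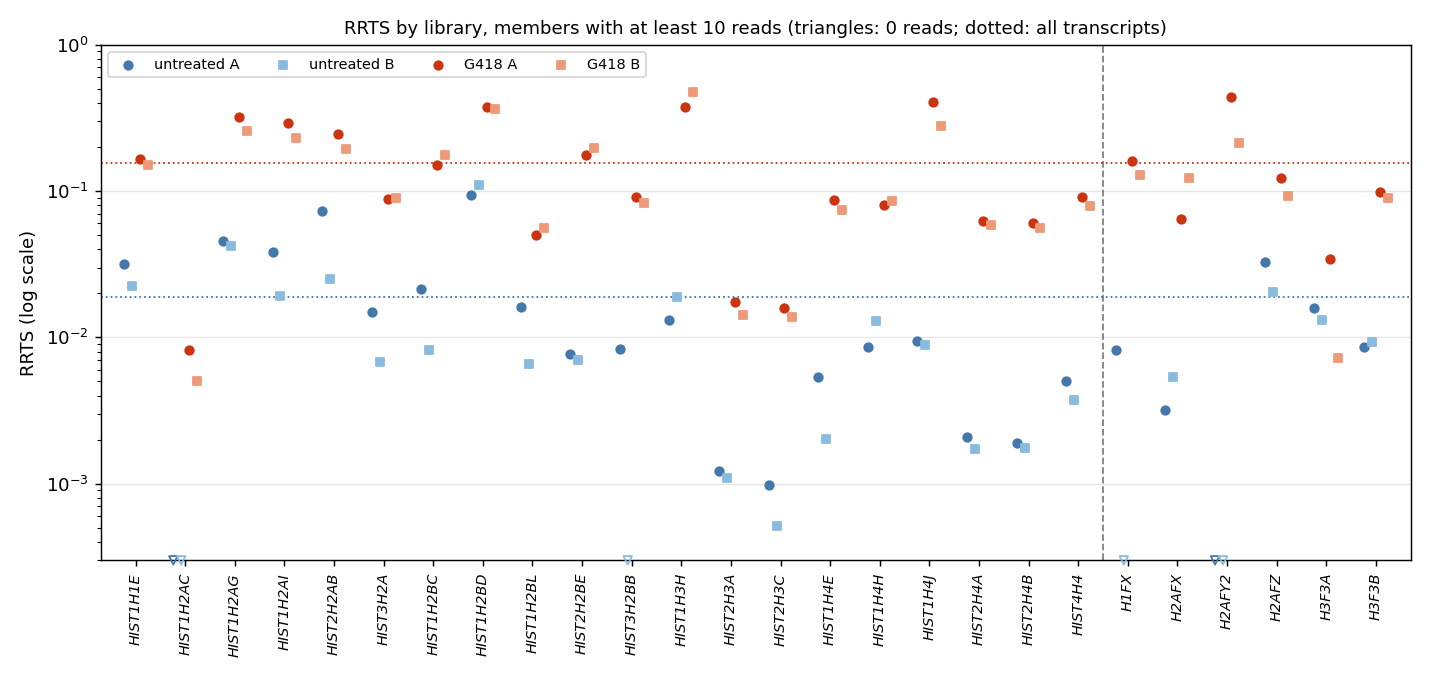
RRTS (log scale) by library in the 26 members with at least 10 reads in the counted region; open triangles at the lower edge are libraries with 0 reads, and dotted lines are the mean aggregate RRTS of all transcripts, 0.019 in untreated cells (blue) and 0.154 with G418 (red). G418 libraries lie above untreated libraries in all drawn members except H3F3A, and HIST2H3A and HIST2H3C are low because 582 nt were scored.

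Grouped by stop codon, RD members followed the order seen over all transcripts with G418, but not in untreated cells. With regions ended at the stem-loop, the order with G418 could not be read. In G418-treated cells the aggregate RRTS was 0.0431 ± 0.00368 (SD, n = 2) for the 10 RD members ending in UAA, 0.0844 ± 0.00541 (SD, n = 2) for the 5 ending in UAG and 0.132 ± 0.00108 (SD, n = 2) for the 9 ending in UGA. Over all transcripts these values were 0.0891, 0.15 and 0.22. In untreated cells the RD means were 0.00607, 0.00762 and 0.00513, closer together, against 0.0146, 0.0166 and 0.0248 over all transcripts. The UAA members include HIST2H3A and HIST2H3C, scored over 582 nt. Once regions were ended at the stem-loop, the values with G418 were 0.223 ± 0.0176 (SD, n = 2) for UAA members, 0.107 for UAG and 0.174 for UGA. All UAA members counted here have the motif. HIST1H2AC, HIST1H2BN and HIST1H3E (UGA) and HIST2H2BF (UAG) lack it and kept their whole regions. With G418, HIST1H2AC had 21 reads where 3093 were expected at its CDS density. The UGA and UAG values are therefore lowered beside the UAA value, and they give no order of the stop codons. In untreated cells, and with the same ends, the UAA members stood at 0.0315 ± 0.00358 (SD, n = 2), and the UAG and UGA members at 0.00961 and 0.00672. HIST1H2AG and HIST1H2BD, both UAA followed by C, supplied 346 of the 522 reads of UAA members in untreated cells and 1712 of 3830 with G418.

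The CDS reads of genes that process histone mRNA and of those that assemble histones into chromatin were counted in the same test. Of 16 tested genes of histone mRNA metabolism, 2 were higher and 1 lower by edgeR, against 5.31% and 3.21% of all transcripts (median log2 fold change -0.02). At an unadjusted p below 0.05 there were 2 and 1, against 12.7% and 10.1%, and by DESeq2 1 and 0, against 1.49% and 1.78%. SLBP had 169 and 169 CDS RPM in untreated cells, against 171 and 186 with G418 (log2 fold change -0.03 ± 0.10, adjusted p = 0.908). CCNE1, which encodes cyclin E1, had 18.01 and 18.7 against 33.7 and 38.6 (log2 fold change 0.88 ± 0.17, adjusted p = 0.000779), and LSM10, a U7 snRNP subunit needed to cut histone pre-mRNA, had 9.87 and 9.99 against 18.1 and 19.3 (log2 fold change 0.80 ± 0.21, adjusted p = 0.0113). UPF1, a helicase that acts in nonsense-mediated decay and in histone mRNA decay, had 240 and 298 against 226 and 221 (log2 fold change -0.35 ± 0.10, adjusted p = 0.0236). LSM10 and UPF1 did not pass in DESeq2, nor UPF1 with library totals alone. CCNE1 did not pass without G418 replicate B, UPF1 without either G418 library, and LSM10 without either G418 library or without untreated replicate A.

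Of 21 tested histone chaperone and assembly genes, 0 were higher or lower by edgeR or DESeq2, and 0 were higher and 2 lower at an unadjusted p below 0.05 (median log2 fold change -0.09). Of all transcripts, 5.31% were higher and 3.21% lower by edgeR, 12.7% and 10.1% at the unadjusted p, and 1.49% and 1.78% by DESeq2. Among 17 tested S phase genes, 3 were lower and 0 higher by edgeR, 9 lower and 0 higher at an unadjusted p below 0.05, and 0 by DESeq2 (median log2 fold change -0.19), against 3.21% and 10.1% of all transcripts lower by the adjusted and the unadjusted p. The 3 were POLD1, a DNA polymerase delta subunit (log2 fold change -0.39 ± 0.11, adjusted p = 0.0196), POLA1, the catalytic subunit of DNA polymerase alpha (-0.32 ± 0.09, adjusted p = 0.0294), and RRM1, a ribonucleotide reductase subunit (-0.31 ± 0.09, adjusted p = 0.0187). None of the 3 passed with library totals alone (log2 fold changes -0.28, -0.21 and -0.21) or without either G418 library. What part the S phase genes have in the RD change was not tested.

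Of the markers of the line, all but PAX2 were listed in all 4 tables. VIM had 1351 and 1521 CDS RPM in untreated cells, against 1205 and 1255 with G418, and KRT18, NEFL, NEFM, INA, LIN28B and IGF2BP1 were listed in all 4 tables. KRT8 was listed at 4.67 and 3.47 CDS RPM in untreated cells, against 3.58 and 4.49 with G418. PTPRC, ALB, HBB and COL1A2, which mark leukocytes, hepatocytes, erythroid cells and fibroblasts, were in none of the tables. This is no measure of their level, since FEN1, CCNA2, RRM2 and CDK2, which dividing cells use, were in none of the tables either. PAX2 was in the G418 tables only, and the fibroblast marker COL1A1 had 29.95 and 40.8 against 27.1 and 26.9 CDS RPM. Of the 9 markers tested, 0 were higher and 1 (VIM) lower by edgeR (log2 fold change -0.32 ± 0.08, adjusted p = 0.00902), 0 and 3 at an unadjusted p below 0.05, and 0 and 1 by DESeq2. Of all transcripts, 5.31% were higher and 3.21% lower by edgeR, 12.7% and 10.1% at the unadjusted p, and 1.49% and 1.78% by DESeq2. VIM did not pass with library totals alone (log2 fold change -0.22) or without either G418 library.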

How the data were processed

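Duplicates that shared a molecular identifier had been collapsed, and HEK293T ribosome footprints (28 to 35 nt) aligned, with 1 alignment kept for a read that maps to several places, with STAR after CASAVA 1.8 to hg38 (GRCh38), per the labels and the methods of the study, and the authors deposited 1 table per library with 1 transcript per gene. Each table holds deposited whole read counts, RPM and RPKM densities per region, and a 5′UTR density treated here as a score and not used (some shortened lengths are 0 or less), and RRTS, a ratio of densities that leaves out 6 nt after the NTC and 33 nt of the CDS. Reads were recovered from the deposited RPM values, 100% of which were whole multiples of 1 read (tolerance 0.01); deposited CDS counts equal these or lie 1 below. Deposited ratio and occupancy columns were recomputed from reads, and the RRTS so obtained equalled the deposited one to within 3.35e-07.

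CDS counts were tested with edgeR 4.0.16 (quasi-likelihood, TMM, filterByExpr). 5′UTR reads (at least 20) and reads from the NTC to the 3′TC met first (at least 10) passed a further minimum on CDS or mRNA reads (the latter the study's own) and were tested with log(CDS reads + 0.5) as offset, which for both used recovered reads. The count test on recovered CDS reads called 18 RD members lower. P-values were adjusted by Benjamini-Hochberg over all transcripts, with a threshold of 0.05. On simulated counts for the CDS comparison edgeR recovered 97.0% of 200 changed transcripts with 3.96% false calls, DESeq2 1.42.0 89.5% with 0.556%; for 5′UTR reads 95.5% with 1.55% and 79.5%, and for RRTS 81.0% and 64.5%. How these rates hold for changes as small as the RD falls in CDS reads was not tested. Group sums were compared by exact permutation over libraries. Positions and sequences came from GENCODE release 44. The sequence around 1 stop codon is not reported here. The members and lists were chosen with earlier results of these data known. Named were all variant genes, the 2 RD genes with the most CDS reads per class, those with the largest significant rise or fall, the 3 per group with the most reads past the NTC, HIST1H4J, SLBP and up to 4 called genes per list.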

Additional observations from a re-analysis of the deposited data

How the results depend on the processing

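The replicate letters A and B are shared by the conditions, but deviations of same-lettered libraries correlated weakly (r = 0.136 over 8494 transcripts, 2 pairs), and no label says what a letter marks, so whether letters mark a shared batch is not known. With the letter as a replicate block, 20 RD members were lower in CDS reads, 2 variant members higher and 1 lower (5.32% of all transcripts lower and 7.28% higher, 452 and 618), 7 RD members lower in 5′UTR reads per CDS read (98 and 6 of all transcripts lower and higher), and RRTS calls of members did not change in number. In CDS reads H2AFX, H2AFY2 and HIST1H4J then passed, and in 5′UTR reads per CDS read HIST1H2AC and HIST1H4J. DESeq2 called 0 variant members higher in CDS reads, 108 of all transcripts higher and 129 lower, 0 of all transcripts higher in 5′UTR reads per CDS read, and 1372 higher and 0 lower in RRTS. With library totals alone, 2 variant members were higher, and 887 of all transcripts were higher and 120 lower, against 451 and 273 with TMM scaling, and the median log2 fold change of all transcripts was 0.11 rather than 0.0025. For 5′UTR reads, a minimum of 10 gave 5 RD members lower, and a minimum of 40 gave 0 of all transcripts higher. For RRTS, a minimum of 20 reads gave 1536 of all transcripts higher, and the whole 3′UTR gave 10 lower.

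Leaving out 1 library at a time, between 0 and 22 RD members were lower in CDS reads, 0 to 3 variant members higher and 0 to 2 lower, with 57 to 990 of all transcripts higher and 15 to 1092 lower. In 5′UTR reads per CDS read, 2 to 11 RD members were lower and 0 to 1 higher, 0 to 3 variant members lower, and 14 to 289 of all transcripts lower and 0 to 26 higher. In RRTS, 19 to 20 RD and 4 to 5 variant members were higher, with 1331 to 2177 of all transcripts higher and 1 to 2 lower. In these fits the lone library of a condition is assumed to vary like the others. The cause of these movements was not tested.

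For the group sums, the log2 ratio of aggregate RRTS was 3.25 for RD members and 3.75 as a median over genes, and 2.82 for variant members, 3.46 as a median over genes and 1.73 over the whole 3′UTR. Leaving out 1 library moved them between 3.06 and 3.45 and between 2.62 and 3.03. The log2 ratio of 5′UTR reads per 1000 CDS reads was -0.54 for RD members without the 3 with the most 5′UTR reads, and -0.60 and -0.61 for variant members without 1 and 3. The log2 ratio of the summed variant share was -0.02 and lay between -0.10 and 0.05 when 1 library was left out, and that of the RD share between -0.32 and -0.13. In CDS reads, the log2 fold changes of H3F3B, H3F3C and SLBP, near 0, turned above 0 with library totals alone, and H1FX, H3F3B, H3F3C and SLBP each changed sign when a library was left out. Untreated replicate B, with the fewest reads, limits all low counts, and floors set from a count of 0 and the counting intervals of H1FX and H2AFX cover counting error only.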
